A study of Homo sapiens with 8 samples.

Results

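The data described here are the transcript responses of DU145 cells to hydrogen peroxide (H2O2). DU145 is an established human prostate cancer cell line of epithelial origin. The series holds 8 RNA-seq libraries from DU145 and 22RV1, a second prostate cancer line, and the 4 DU145 libraries were chosen by their labels. They form 2 pairs of H2O2 against PBS vehicle, 1 pair in cells with an empty vector (TET) and 1 pair in cells with a doxycycline-inducible PAGE4 construct. Each condition was 1 library. Both constructs were carried by lentivirus, cells were kept after puromycin selection, and doxycycline was given to all transduced cells, so the vehicle libraries also carry virus, selection and doxycycline. H2O2 was added 12 h before collection at a labelled 200 mM. A figure legend of the study gives a lower dose for other mRNA measurements. The question addressed is which transcripts moved with H2O2 in DU145 cells, whatever the construct, and which of these responses differed from those of 22RV1 cells.

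H2O2 is a small oxidant that crosses membranes and is removed by catalase, peroxiredoxins and glutathione peroxidases. Cells answer it through several transcription programmes. NRF2 induces glutathione and thioredoxin enzymes when its repressor KEAP1 is oxidised, HSF1 induces heat shock proteins when proteins are damaged, ATF4 serves the integrated stress response, AP-1 is built from FOS and JUN proteins downstream of MAP kinases, and p53 induces cell cycle inhibitors after DNA damage. Mitochondria carry their own genome, which encodes 13 mRNAs, 2 rRNAs and 22 tRNAs from long transcripts that are then cut.

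The total count of the 4 libraries ran from 26124000 to 30107611, and the table lists 58828 genes. The label was checked with markers. All 7 markers listed for DU145 passed the filter on low counts (3 rose and 3 fell with H2O2), with KRT8, an epithelial keratin, at a normalized count of 18802, 11059, 25112 and 13296 in vector vehicle, vector H2O2, PAGE4 vehicle and PAGE4 H2O2 cells, the order used throughout. KLK3 and TMPRSS2, markers of luminal prostate cells, did not exceed 1.05 in any DU145 library, against 137 or more in each 22RV1 library. VIM, vimentin, was at 10496 or more in each DU145 library and at 832 or less in each 22RV1 library. KRT8, KRT18 and CD44 do not set DU145 apart, since their levels in 22RV1, where KRT8 was at 36261 or more, were also high. The lines were scaled separately. In DU145, 7 of 9 luminal markers were too low to test. Of 10 leukocyte and fibroblast markers, 8 were too low to test, and the raw counts of all 10 summed to 12, 18, 12 and 31, higher with H2O2 in each pair. Their part in the results below was not tested. PAGE4 itself was at 0.928, 1.05, 941 and 1507 normalized counts, so it was near 0 in both vector libraries and present in both PAGE4 libraries. A normalized count is the raw count divided by the DESeq2 size factor of its library. Log2 fold changes of both pairs together and adjusted p-values come from edgeR's quasi-likelihood test with the construct as a block. Standard errors (SE) were derived as the absolute log2 change divided by the square root of the test's F statistic. They are not the spread of the pairs.

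H2O2 moved a large part of the transcriptome in both pairs. Of 18622 genes tested, 4734 rose and 4720 fell with an adjusted p under 0.05, 50.8% in all, 25.4% up and 25.3% down. The counts of each gene list below are to be read beside these shares. Most changes were small, with a median absolute log2 change of 0.66 among the genes called, and 2503 of them exceeded 2-fold. When a change of over 1.5-fold in the same direction in each pair was also required, 2033 genes (10.9%) rose and 2245 (12.1%) fell. Over 13330 genes whose normalized count averaged 50 or more, Pearson's r between the log2 changes of the pairs was 0.89. The pairs share no library, and genes are not independent replicates, so this is a description. By fold change alone, 2307 of 18088 genes (12.8%) rose over 1.5-fold in both pairs and 2562 (14.2%) fell, and 312 moved over 1.5-fold in opposite directions. The test had 1 residual degree of freedom and took its spread from all genes. That spread is between the responses of 2 constructs, not between repeat cultures. The weight given to this pooled spread (prior degrees of freedom) was infinite at the median. A gene's own disagreement between the pairs therefore had little weight in its p-value. In bulk RNA, fewer cells of a type and less RNA per cell cannot be told apart. In a fit that took its spread from 22RV1 as well, leaving out the vector pair left 5327 calls and leaving out the PAGE4 pair left 5143.

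**Figure D1:**
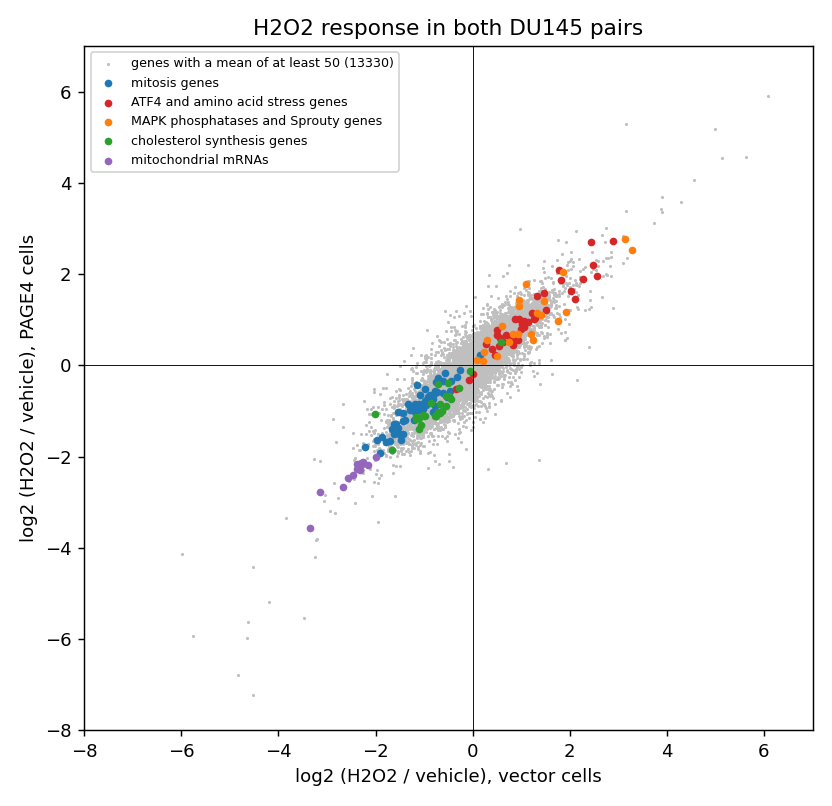
Each point is a gene, with its log2 ratio of H2O2 to vehicle in vector cells on the x axis and in PAGE4 cells on the y axis, after adding 0.5 to normalized counts. The 13330 genes follow the diagonal (r = 0.89), with mitosis genes, cholesterol synthesis genes and mitochondrial mRNAs at the lower left and ATF4 genes, MAPK phosphatases and Sprouty genes at the upper right.

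Promoters of HSPA6, PPP1R15A and HMMR, the genes with the largest change in the direction of their list, are shown because their letters hold sites named for the pathways described below. They are RefSeq sequences of GRCh38.p14, from 250 bases before to 50 after the start of the gene. HSPA6, an inducible heat shock chaperone, is at chr1:161524290-161524589 (plus strand), with heat shock element cores in capitals. PPP1R15A, which encodes the stress-induced phosphatase subunit GADD34, is at chr19:48872171-48872470 (plus strand), with a cyclic AMP response element in capitals. HMMR, a mitotic spindle and hyaluronan binding protein, is at chr5:163460382-163460681 (plus strand), with CCAAT boxes and cell cycle homology regions (CHR) in capitals.
HSPA6: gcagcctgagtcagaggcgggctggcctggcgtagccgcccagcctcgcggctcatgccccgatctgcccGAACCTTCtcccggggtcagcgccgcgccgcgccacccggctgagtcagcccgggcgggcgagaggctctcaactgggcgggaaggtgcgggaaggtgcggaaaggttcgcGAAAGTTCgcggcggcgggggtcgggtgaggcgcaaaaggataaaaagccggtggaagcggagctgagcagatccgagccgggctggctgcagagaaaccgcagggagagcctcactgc
PPP1R15A: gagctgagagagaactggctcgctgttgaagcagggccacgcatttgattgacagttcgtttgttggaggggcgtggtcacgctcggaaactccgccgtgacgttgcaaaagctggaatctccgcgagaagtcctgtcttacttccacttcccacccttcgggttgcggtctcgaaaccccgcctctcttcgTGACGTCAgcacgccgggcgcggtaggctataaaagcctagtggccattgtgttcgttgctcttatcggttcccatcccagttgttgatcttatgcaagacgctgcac
HMMR: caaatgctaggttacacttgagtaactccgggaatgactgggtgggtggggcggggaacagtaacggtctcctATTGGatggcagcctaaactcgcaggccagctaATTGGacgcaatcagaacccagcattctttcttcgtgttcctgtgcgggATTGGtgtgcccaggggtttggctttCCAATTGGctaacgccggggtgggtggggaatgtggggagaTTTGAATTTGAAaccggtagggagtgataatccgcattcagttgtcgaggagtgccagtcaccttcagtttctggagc

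The motifs were searched on both strands of the first listed promoter of each gene. GAANNTTC, the heat shock element core, was in 10 of the 23 promoters matched for the heat shock list (43.5%) and in 6.87% of all 27305 promoters. CCAAT was in 40 of 54 mitosis promoters (74.1%) against 35.7% of all, and TTTGAA, the CHR, in 37 of 54 (68.5%) against 15.4%. TGATGNAA, a composite ATF4 site, was in 9 of 34 ATF4 list promoters (26.5%) against 3.67%. TGACGTCA was in 1 of these 34, PPP1R15A (2.94%), against 1.98% of all. TGANTCA, the AP-1 site, was in 1 of 27 early response promoters (3.70%), in 2 of 18 promoters of MAPK phosphatases and Sprouty genes (11.1%) and in 4 of 28 matrix promoters (14.3%), against 7.76% of all. In HMMR, 2 of the 5 CCAAT boxes overlap on opposite strands and the 2 CHR letters follow each other. These are matches of letters and were not tested as binding sites.

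The genes with the largest rises had varied roles. Of 12 genes with the largest rises, IQCA1L was at 0, 126, 0 and 91.6 normalized counts, at least 45.2-fold higher in vector cells and at least 32.5-fold higher in PAGE4 cells against a floor of 3 counts per library. MMP10, a matrix metalloprotease, had raw counts of 2, 152, 1 and 81, and the 95% Clopper-Pearson interval of its summed log2 ratio ran from 4.88 to 8.74, which covers counting error only. MMP1, the interstitial collagenase, lies 8773 bases from it on chromosome 11 (GRCh38, 102789401 to 102798160, minus strand) and was at 6.50, 136, 0 and 104. Both proteases were near 0 in vehicle and detected with H2O2 in each pair. NPC1L1, which takes up cholesterol, was at 2.78, 163, 3.76 and 101. FOSB, an AP-1 subunit, was at 15.8, 570, 30.1 and 716, a log2 change of 4.81 (SE 0.21). INHBA, a subunit of activin, was at 9.28, 231, 9.40 and 164, a log2 change of 4.38 (SE 0.33). FOSB overlaps ERCC1 and INHBA overlaps INHBA-AS1 on the opposite strand, and reads of such partners cannot be told apart without strand. CXCL8, the neutrophil chemokine IL-8, was at 55.7, 842, 61.1 and 789, a log2 change of 3.80 (SE 0.17). DCLK1, a doublecortin-like kinase, THBD, the thrombin receptor thrombomodulin, SNORD3A and KLHDC7B had log2 changes of 3.71, 3.62, 4.14 and 3.89. The H2O2 libraries lay above the vehicle libraries for all 12, but the genes were chosen for a rise in both pairs, so this adds no support. Some, such as IQCA1L and MMP1, reached the required mean of 50 only through their H2O2 libraries. The twelfth, HSPA6, is described with the heat shock genes.

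**Figure D2:**
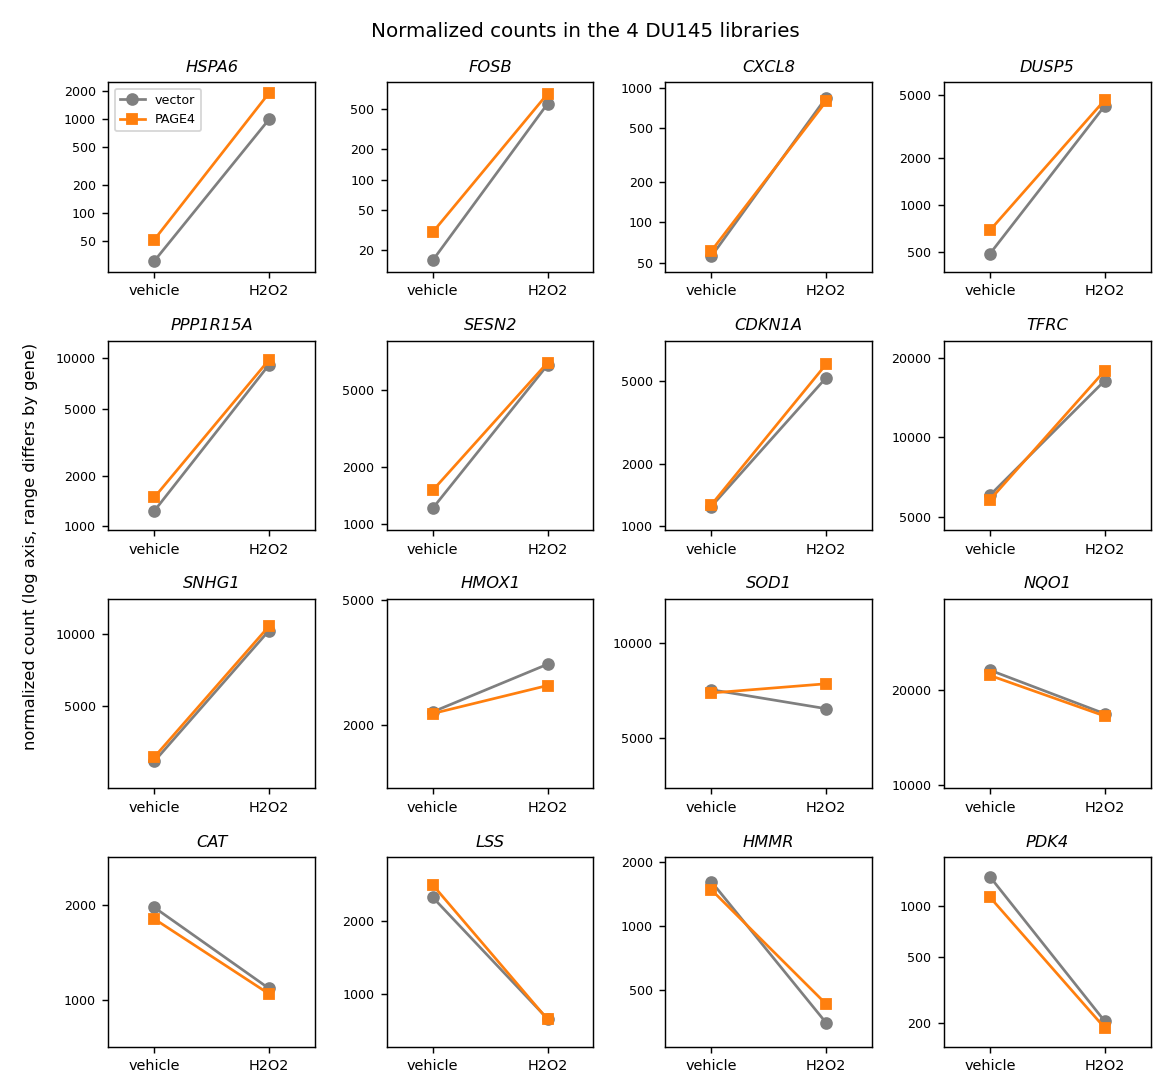
Normalized counts of 16 genes in the 4 DU145 libraries, on a log axis whose range differs between genes, with vector cells as grey circles and PAGE4 cells as orange squares. The lines join vehicle to H2O2, and both pairs moved in the same direction for all 16 genes but SOD1, which was lower with H2O2 in vector cells (7114 to 6192) and higher in PAGE4 cells (6949 to 7431).

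Heat shock genes rose. Of 25 cytosolic heat shock genes tested, 19 (76.0%) rose and 1 fell, with a median log2 change of 0.45, against -0.01 over all genes tested. HSPA6 was at 30.6, 997, 51.7 and 1906, a log2 change of 5.13 (SE 0.16). It overlaps a noncoding gene on the same strand. HSPA1A was at 245, 824, 284 and 1397 and HSPA1B at 1340, 5086, 1800 and 7002, log2 changes of 2.03 (SE 0.12) and 1.94 (SE 0.08). These stress-inducible HSP70 genes are near copies of each other, so the split of reads between them is uncertain. HSPH1, a co-chaperone of HSP70, and DNAJB1, which delivers clients to it, rose by log2 0.91 and 0.82. DNAJB4, another co-chaperone, was the member that fell, by 0.37 on the log2 scale, and it did not pass without either pair. Metallothioneins, which bind zinc and buffer oxidants, and zinc transport genes were higher for 7 of 8 tested and lower for none. Without the PAGE4 pair 3 passed and without the vector pair 5. MT2A was at 5990, 8197, 9165 and 12169, and SLC30A1, a zinc exporter, at 870, 1699, 854 and 1877. MT2A vehicle and H2O2 libraries overlapped across constructs, and its call was lost without the construct block (adjusted p = 0.112 by the edgeR quasi-likelihood method).

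ATF4 target and amino acid stress genes rose together. Of 40 tested, 37 (92.5%) rose, 24 of them over 1.5-fold in both pairs, and 2 fell, with a median log2 change of 0.95. PPP1R15A was at 1234, 9154, 1485 and 9794, a log2 change of 2.80 (SE 0.08). DDIT3, the transcription factor CHOP, was at 426, 1509, 425 and 1558. TRIB3, a pseudokinase that inhibits AKT, was at 3955, 16109, 6322 and 19646. Both rose in each pair, with log2 changes of 1.85 and 1.83. ATF3 and DDIT4, an inhibitor of mTORC1, rose by log2 1.93 and 1.77, and ASNS, asparagine synthetase, by 1.18. ATF4 itself, much of whose control is at translation, rose by 0.38 (SE 0.07), a call that was lost when 1 pair was left out (adjusted p up to 0.0612 by the edgeR quasi-likelihood method). CBS, a transsulfuration enzyme, fell by 0.43 on the log2 scale, and its call was lost without the PAGE4 pair. The genes of the endoplasmic reticulum (ER) unfolded protein response were split, with 12 of 30 higher and 13 lower, which became 11 and 7 without the vector pair and 8 and 10 without the PAGE4 pair. As shares, 40.0% of this ER list rose and 43.3% fell, against 25.4% and 25.3% of all genes. HSPA5, the ER chaperone BiP, was at 17797, 26233, 20564 and 30770, a log2 change of 0.57 (SE 0.06). DNAJB9, HERPUD1 and XBP1 rose by log2 1.28, 0.90 and 0.85, and CRELD2 fell by 0.85 on the log2 scale.

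Genes of the immediate early and MAP kinase feedback programme rose. Of 37 AP-1, EGR and other early response genes, 27 (73.0%) rose and 5 fell. JUN was at 597, 4268, 1042 and 4719, a log2 change of 2.49 (SE 0.09). FOSL1, the AP-1 subunit FRA1, was at 2509, 11680, 3617 and 12664, and FOS at 400, 786, 295 and 906. All 3 were higher in each H2O2 library than in each vehicle library. EGR1 went the other way, at 7646, 6083, 5772 and 3526, a log2 change of -0.52 (SE 0.07) that did not pass when 1 pair was left out (adjusted p up to 0.156 by the edgeR quasi-likelihood method). CYR61, a matricellular YAP target, fell by 0.72 on the log2 scale, and MYC rose by 0.48. The CYR61 call was lost without the PAGE4 pair and the MYC call without the vector pair, and without the PAGE4 pair 1 of the 5 falls on the list passed. Of 22 MAPK phosphatases and Sprouty genes, which damp ERK and JNK signalling, 19 (86.4%) rose and none fell, with a median of 1.03. DUSP5, a nuclear ERK phosphatase, was at 484, 4272, 684 and 4656, a log2 change of 2.95 (SE 0.09). SPRY4 was at 134, 1296, 191 and 1107, a log2 change of 2.89 (SE 0.13). DUSP6, a cytoplasmic ERK phosphatase, rose by log2 1.96, SPRY2 by 0.81 and DUSP1, which removes phosphate from p38 and JNK, by 0.76. The ligand HBEGF, which activates EGFR upstream of ERK, was at 148, 949, 181 and 882, a log2 change of 2.48 (SE 0.14), and EREG, another ligand of EGFR, rose by 1.03. EGF fell by 1.06 on the log2 scale, a call that was lost without either pair.

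The study chose 11 MAPK cascade genes on these samples, for a difference between PAGE4 and vector cells, so their directions are no independent evidence. With H2O2, 1 of 11 rose and 4 fell, and 1 of the falls passed when either pair was left out. RASSF2, a RAS effector, was at 525, 234, 392 and 143, and BMP4 at 162, 78.7, 244 and 123. PELI2, an E3 ligase of Toll-like receptor signalling, was at 70.5, 133, 38.5 and 74.8. The log2 changes were -1.30 (SE 0.16), -1.01 (SE 0.21) and 0.93 (SE 0.29), and the calls of BMP4 and PELI2 were lost when 1 pair was left out (adjusted p up to 0.0986 and 0.233 by the edgeR quasi-likelihood method). F2R and WNT5A were at 383, 226, 377 and 366 and at 80.7, 54.6, 52.6 and 25.3, and their calls were lost without either pair.

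In the fit of both pairs, most of the NF-kB and cytokine genes tested rose. Fewer of these rises passed when either pair was left out. Of 26 NF-kB and cytokine genes tested, 16 (61.5%) rose and 4 fell, and 1 of the falls passed when either pair was left out. TNFAIP3, the NF-kB inhibitor A20, was at 128, 560, 130 and 994, and NFKBIA, which holds NF-kB in the cytoplasm, at 1211, 3148, 1543 and 3789. Both were higher with H2O2 in each pair, with log2 changes of 2.54 and 1.33. IL6 was low and did not pass, at 7.42, 12.6, 6.58 and 10.5. BCL3, a nuclear NF-kB cofactor, fell by 0.82 on the log2 scale. Of 31 interferon response and antigen presentation genes, 7 rose and 11 fell, with 3 rises without the vector pair and 4 without the PAGE4 pair. As shares, 22.6% of the interferon list rose and 35.5% fell, against 25.4% and 25.3% of all genes. IFIT1, an antiviral RNA binding protein, was at 495, 84.0, 338 and 57.9, lower in both H2O2 libraries than in both vehicle libraries. ISG20, an exonuclease, rose by log2 1.33, and IFIT1 fell by 2.55 on the log2 scale.

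NRF2 target genes were split in DU145 cells. Of 34 tested, 11 (32.4%) rose, none over 1.5-fold in both pairs, and 11 (32.4%) fell, 5 of them over 1.5-fold, with a median log2 change of -0.14. These shares compare with 25.4% and 25.3% of all genes, and the 11 rises became 2 without the vector pair and 3 without the PAGE4 pair. HMOX1, the haem oxygenase that NRF2 strongly induces in many cells, was at 2207, 3127, 2180 and 2677, a log2 change of 0.40 (SE 0.08). NQO1, a quinone reductase, was at 23143, 16822, 22264 and 16543, a log2 change of -0.45 (SE 0.07), and both H2O2 libraries lay below both vehicle libraries. SRXN1, which repairs peroxiredoxins, was at 142, 375, 547 and 414, with PAGE4 vehicle the highest of the libraries. It was higher with H2O2 in vector cells and lower in PAGE4 cells, yet it counts among the 11 rises (log2 change 0.40). GCLM, of glutathione synthesis, TXNRD1, thioredoxin reductase, and SLC7A11, the cystine transporter, rose by log2 0.37, 0.26 and 0.22. The calls of HMOX1, GCLM, TXNRD1 and SLC7A11 were lost when 1 pair was left out, with adjusted p up to 0.495, 0.122, 0.429 and 0.473 by the edgeR quasi-likelihood method. ABCC3, an efflux pump, fell by 1.05 on the log2 scale.

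Of 20 enzymes that handle peroxide and superoxide, 3 (15%) rose and 9 (45%) fell, against 25.4% and 25.3% of all genes. CAT, catalase, was at 1964, 1085, 1805 and 1043, a log2 change of -0.83 (SE 0.09). SOD1, the cytosolic superoxide dismutase that the study followed, was at 7114, 6192, 6949 and 7431, a log2 change of -0.05 (SE 0.07) with an adjusted p of 0.58 by the edgeR quasi-likelihood method. PRDX1, an abundant peroxiredoxin, was at 11180, 10143, 10888 and 10278 and did not pass. GPX1, glutathione peroxidase, rose by log2 0.32, a call lost when 1 pair was left out (adjusted p up to 0.441 by the edgeR quasi-likelihood method). SESN2, a stress-induced regulator of mTORC1 that is also a target of p53, was at 1214, 6750, 1504 and 6944, a log2 change of 2.34 (SE 0.08). SESN3, its relative, was at 479, 216, 209 and 103 and fell by 1.09 on the log2 scale. Of the ferritin and iron genes, TFRC, the transferrin receptor, was at 6039, 16344, 5801 and 17818, a log2 change of 1.53 (SE 0.07). FTL, the ferritin light chain, fell by 0.28 on the log2 scale, a call lost without the PAGE4 pair, and FTH1, the heavy chain, was at 13740, 20436, 26693 and 24496, with no common direction in the pairs.

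**Figure D3:**
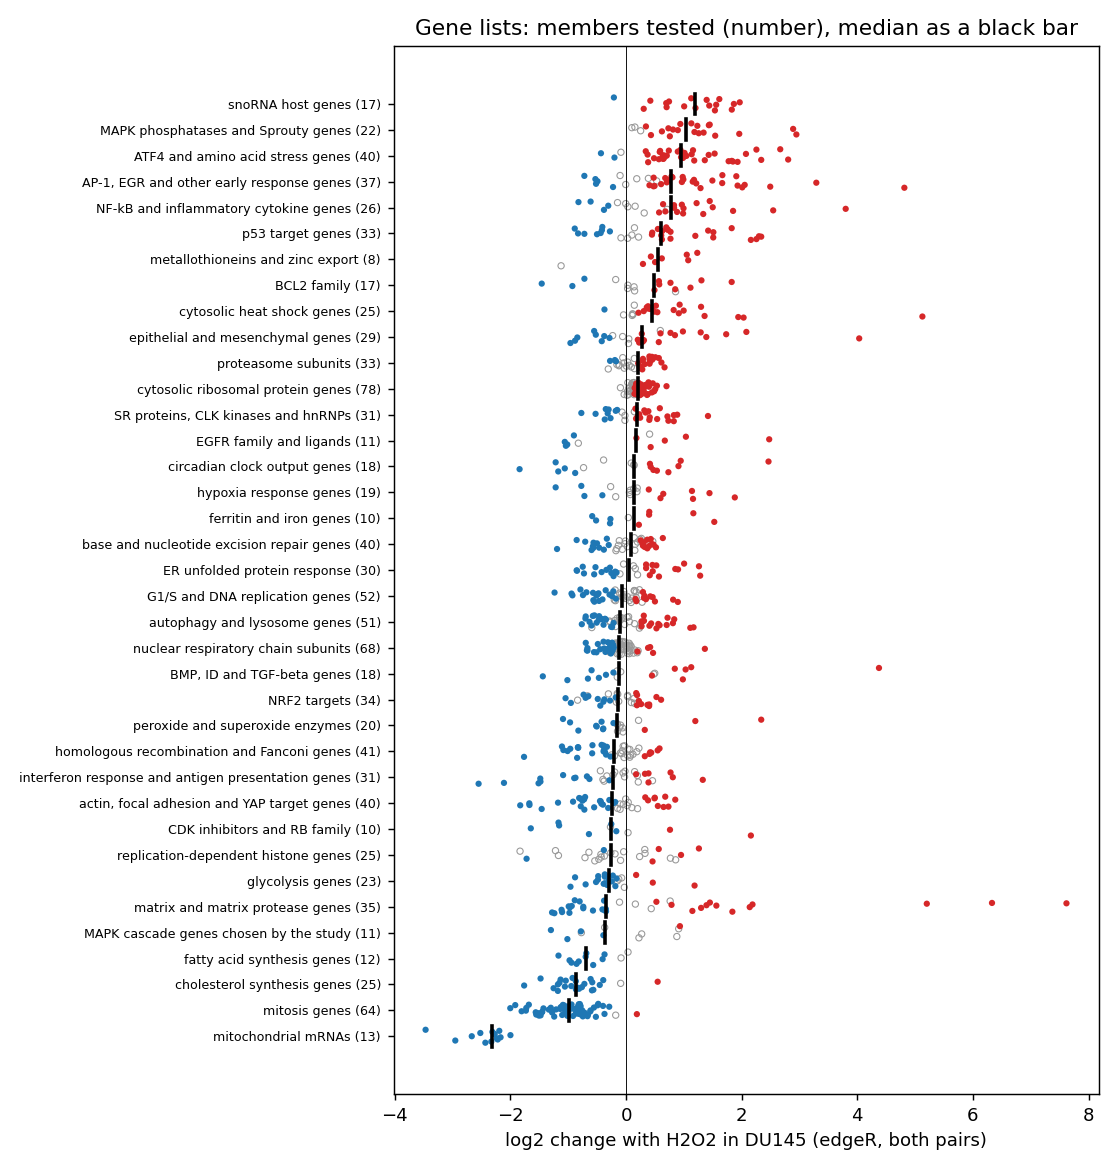
Log2 changes with H2O2 in DU145 cells (x axis) of the tested members of each gene list (rows, with their number), filled where the adjusted p was under 0.05, red for higher and blue for lower, with the median as a black bar. The medians run from -2.31 for mitochondrial mRNAs and -0.99 for mitosis genes to 1.03 for MAPK phosphatases and Sprouty genes and 1.20 for snoRNA host genes.

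Mitosis genes fell, and G1/S and DNA replication genes moved in both directions, at shares nearer those of all genes. Of 64 mitosis genes, 62 (96.9%) fell, 51 of them over 1.5-fold in both pairs, and 1 rose, with a median log2 change of -0.99. HMMR was at 1624, 349, 1486 and 429, a log2 change of -2.00 (SE 0.11). PLK1, a mitotic kinase, was at 4602, 1701, 5479 and 1914, and TOP2A, which decatenates sister chromatids, at 23086, 7750, 21931 and 9025. Each H2O2 library was below each vehicle library for these 3 genes, with log2 changes of -1.48 and -1.43 for PLK1 and TOP2A. CCNB1, cyclin B1, AURKA, CDC20 and CDK1 fell by 1.24, 1.10, 0.92 and 0.67 on the log2 scale. BUB3, a spindle checkpoint protein, was the member that rose, by 0.19, and it did not pass in 6 of the alternatives. Of 52 G1/S and DNA replication genes, 11 (21%) rose and 20 (38%) fell, against 25.4% and 25.3% of all genes. These counts became 3 and 17 without the PAGE4 pair and 7 and 12 without the vector pair. MCM2 of the replicative helicase was at 7874, 9807, 8146 and 10563 and RRM2 of ribonucleotide reductase at 5240, 4448, 5164 and 5218. MCM2 rose by log2 0.34, a call lost without the PAGE4 pair, and RRM2 did not pass. CCND1, cyclin D1, was at 9447, 20100, 11029 and 17975, a log2 change of 0.90 (SE 0.07).

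Several p53 target genes rose. Of 33 tested, 20 (60.6%) rose and 8 fell, with 4 falls without the vector pair and 6 without the PAGE4 pair. CDKN1A, the CDK inhibitor p21, was at 1243, 5204, 1266 and 6043, a log2 change of 2.16 (SE 0.08). GDF15, a stress cytokine, was at 72.4, 432, 95.9 and 372, a log2 change of 2.25 (SE 0.18). MDM2, the ubiquitin ligase of p53, and BBC3, the death protein PUMA, rose by log2 0.62 and 0.77, and BBC3 did not pass when 1 pair was left out (adjusted p up to 0.173 by the edgeR quasi-likelihood method). Genes such as SESN2, GDF15 and CDKN1A also answer ATF4 and other factors, so the list does not isolate p53. In the BCL2 family, PMAIP1, the death protein NOXA, was at 562, 2240, 708 and 2247, and MCL1, which NOXA binds, at 9750, 17475, 10350 and 18807. BMF, another death protein, fell by 1.46 on the log2 scale, against rises of 1.83 for PMAIP1 and 0.85 for MCL1. Of 10 CDK inhibitors and RB family genes, 2 rose, CDKN1A and CDKN2B, and 6 fell, with RB1 at 1145, 502, 1331 and 611 and CDKN2C at 1448, 427, 1347 and 466.

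DNA repair genes differed by list. Of 41 homologous recombination and Fanconi genes, 19 (46.3%) fell and 6 rose, and of 40 base and nucleotide excision repair genes, 12 (30.0%) fell and 13 (32.5%) rose, near the 25.3% and 25.4% of all genes. Among recombination genes, the 19 falls became 11 without the vector pair and 17 without the PAGE4 pair, and the 6 rises became 2 and 1. Among excision repair genes, the 13 rises became 3 and 5. BRCA1 was at 2954, 1587, 2785 and 1606 and FANCD2 at 2437, 1052, 2124 and 1289, log2 changes of -0.85 and -0.97. BRCA2 did not pass, at 1580, 1332, 1340 and 1518. XPC, which senses DNA damage for nucleotide excision repair, rose by log2 0.45, with the call lost when 1 pair was left out (adjusted p up to 0.12 by the edgeR quasi-likelihood method). OGG1, which removes 8-oxoguanine, was at 657, 682, 700 and 528 and did not pass. NEIL3, another glycosylase of oxidised bases, fell by 1.19 on the log2 scale.

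Lipid synthesis genes fell. Of 25 cholesterol synthesis genes, 23 (92.0%) fell, 16 over 1.5-fold in both pairs, and 1 rose, with a median log2 change of -0.87. LSS, which makes lanosterol, was at 2508, 787, 2823 and 783, a log2 change of -1.76 (SE 0.09). INSIG1, the ER retention factor of SREBP, was at 974, 455, 1108 and 494, and SQLE, squalene epoxidase, at 3258, 1902, 3940 and 1817. HMGCS1, which makes HMG-CoA, fell by 0.59 on the log2 scale. SC5D, the sterol desaturase, was the member that rose, by 0.55, a call lost without the vector pair. Of 12 fatty acid synthesis genes, 10 (83.3%) fell. FASN, fatty acid synthase, was at 27606, 18031, 31237 and 15396, and SCD, the stearoyl desaturase, at 32078, 17288, 30957 and 14838. Each was lower in both H2O2 libraries than in both vehicle libraries. Of 23 glycolysis genes, 16 (69.6%) fell and 3 rose, with 10 falls without the vector pair and 11 without the PAGE4 pair. HK2, hexokinase, rose by log2 1.19, from 1379 to 3382 in vector cells and from 1514 to 3198 in PAGE4 cells, and LDHA fell by 0.48 on the log2 scale. PDK4, a kinase that inhibits pyruvate dehydrogenase, was at 1497, 207, 1131 and 189, a log2 change of -2.73 (SE 0.13).

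RNAs of the mitochondrial genome were among those with the largest changes. All 13 mitochondrial mRNAs fell, with log2 changes from -3.47 to -2.00 and a median of -2.31. MT-ND1, of complex I, was at 255074, 46331, 224451 and 42401, and MT-CO1, of complex IV, at 480612, 121508, 442479 and 109604. The mRNA share of all counts fell from 10.5% to 2.19% in vector cells and from 9.30% to 2.01% in PAGE4 cells. MT-ND6, the mRNA on the other strand of the mitochondrial genome, fell by 2.67 on the log2 scale. All 22 mitochondrial tRNAs fell too, with a median of -4.89, and the 12 largest falls among genes eligible for naming were all mitochondrial tRNAs. MT-TC, the cysteine tRNA, was at 2829, 113, 2856 and 56.9, and MT-TV, the valine tRNA between the rRNAs, at 1413, 49.3, 1464 and 12.6. The tRNAs are short and made up at most 0.0638% of the counts in any library. The rRNAs did not follow. MT-RNR1, the small subunit rRNA, was at 291202, 1184537, 251293 and 1261971, a log2 change of 2.17 (SE 0.05), and MT-RNR2, the large subunit rRNA, at 1369494, 1273592, 1207641 and 1204583, a log2 change of -0.06 (SE 0.04). Within each library the log2 ratio of MT-RNR1 to MT-RNR2 counts was -2.23, -0.10, -2.27 and 0.07, so the rRNAs stood far apart with vehicle and nearly level with H2O2. In the 22RV1 libraries this ratio ran from -2.99 to -2.66. MTND2P28, a nuclear copy of MT-ND2, fell by 2.47 on the log2 scale, and reads of such copies cannot be told apart from mitochondrial ones. The total mitochondrial share went from 16.5% to 11.2% in vector cells and from 14.6% to 10.9% in PAGE4 cells, and with the mitochondrial genes left out there were 9463 calls. Of 68 nuclear respiratory chain subunits, 22 (32.4%) fell and 5 rose, with a median of -0.12, and 11 to 14 fell when a pair was left out. Among all genes tested, 25.3% fell and 25.4% rose. COX4I1 of complex IV was at 6006, 5938, 6568 and 6809, and ATP5A1 of the ATP synthase fell by 0.49 on the log2 scale.

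**Figure D4:**
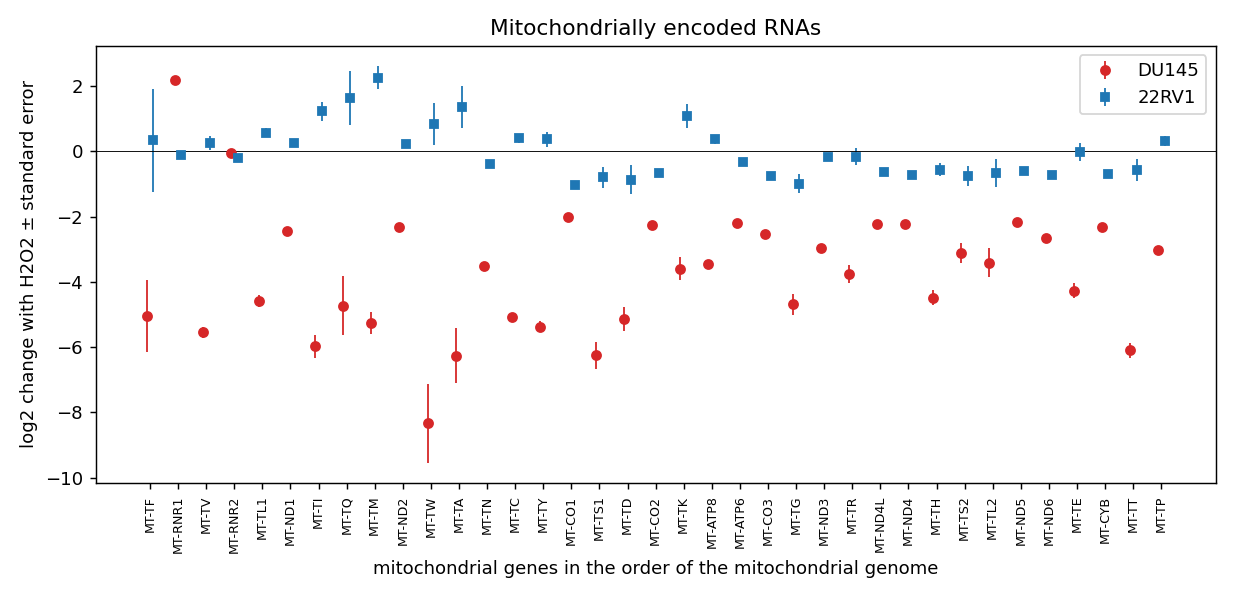
Log2 change with H2O2 ± standard error of each mitochondrial RNA, in the order of the mitochondrial genome, for DU145 (red circles, fit of the 4 DU145 libraries) and 22RV1 (blue squares, fit of all 8 libraries). In DU145 all 13 mRNAs and 22 tRNAs lie between -8.33 and -2.00, MT-RNR1 is at 2.17 and MT-RNR2 at -0.06.

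Among the genes of the nuclear genome with the largest falls, which were chosen after their values were seen, CLDN2, a tight junction pore protein, was at 317, 33.6, 323 and 22.1, a log2 change of -3.52 (SE 0.24). LGSN was at 1201, 143, 1064 and 136, and FLG, filaggrin, at 342, 40.9, 283 and 39.0. CYP24A1, which degrades vitamin D, fell by 2.46 on the log2 scale. The H2O2 libraries did not overlap the vehicle libraries for these 4 genes, but they were chosen for a fall in both pairs, so this adds no support.

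Most snoRNA host genes and ribosomal protein genes rose. Of 17 snoRNA host genes, whose introns carry small nucleolar RNAs, 16 (94.1%) rose, 13 over 1.5-fold in both pairs, and 1 fell, with a median of 1.20. SNHG1 was at 2915, 10367, 3040 and 10817, GAS5 at 5140, 15400, 5684 and 15999, and SNHG17 at 690, 3028, 864 and 3024. The log2 changes were 1.83, 1.54 and 1.97. Many of these spliced RNAs are normally removed by nonsense-mediated decay, which depends on translation. Of 78 ribosomal protein genes, 52 (66.7%) rose, 1 of them over 1.5-fold in both pairs, and none fell, with a median of 0.21. The 52 rises became 16 without the vector pair and 13 without the PAGE4 pair. Of 5 nuclear long noncoding RNAs, 1 rose and 3 fell, and NEAT1, the RNA scaffold of paraspeckles, was at 13628, 6970, 11777 and 6104, a log2 change of -0.96 (SE 0.07). Of 33 proteasome subunits, 17 (51.5%) rose and 3 fell, with 8 rises without the vector pair and 3 without the PAGE4 pair. Of 31 SR proteins, CLK kinases and hnRNPs, 18 rose and 9 fell, with 10 rises when either pair was left out and 5 falls without the vector pair. CLK1, a splicing kinase, rose by log2 1.42. Of 51 autophagy and lysosome genes, 16 rose and 17 fell, which became 8 and 10 without the vector pair and 9 and 8 without the PAGE4 pair. As shares, 31.4% of the autophagy list rose and 33.3% fell, near the 25.4% and 25.3% of all genes. MAP1LC3B, of autophagosomes, was at 1596, 3746, 1900 and 3790. Among hypoxia genes, VEGFA was at 3574, 8655, 4367 and 9002 and NDRG1 at 1369, 4569, 1494 and 6077, and BHLHE40 fell by 1.22 on the log2 scale.

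Cell shape and matrix genes moved in both directions. Of 40 actin, focal adhesion and YAP target genes, 22 (55.0%) fell and 9 rose, with 4 rises without the vector pair and 6 without the PAGE4 pair. ANKRD1, a YAP target, was at 780, 359, 1106 and 318, and TAGLN, an actin binding protein, at 290, 99.7, 284 and 81.1. Of 35 matrix and matrix protease genes, 13 (37.1%) rose and 18 (51.4%) fell, against 25.4% and 25.3% of all genes. LAMA5, a laminin chain, was at 15532, 6860, 17134 and 6595, and FN1, fibronectin, at 1500, 615, 981 and 431, log2 changes of -1.28 and -1.24. PLAU, urokinase, rose by log2 0.79. MMP3 was not detected in vehicle and at 26.2 and 22.1 with H2O2, at least 9.42-fold higher in vector cells and 7.84-fold higher in PAGE4 cells against 3 counts per library, and its call was lost without either pair. Of 29 epithelial and mesenchymal genes, 16 rose and 8 fell, with 5 rises when either pair was left out. VIM, vimentin, was at 10496, 12918, 11102 and 13184, a call lost without either pair. CDH1, E-cadherin, was at 1382, 1571, 2123 and 1991 and did not pass. CD44, a hyaluronan receptor, was at 2084, 4188, 2306 and 4494.

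The response was then set against that of 22RV1 cells, in a fit of all 8 libraries with the 4 pairs as blocks. Of 22418 genes tested, the H2O2 effect was higher in DU145 for 1691 (7.54%) and lower for 1964 (8.76%). With DESeq2 size factors the balance turned, with 2011 higher and 1845 lower. Of 34 NRF2 targets, 24 (70.6%) were lower in DU145 and 1 was higher, with a median log2 change of 0.57 in 22RV1 cells. HMOX1 had a log2 change of 4.40 in 22RV1 and 0.35 in DU145 in this fit, a difference of -4.05 (adjusted p = 1.43e-07, edgeR's quasi-likelihood interaction). NQO1 and TXNRD1 differed by -2.12 and -1.44. The vehicle levels of these genes were already higher in DU145. HMOX1 vehicle libraries were at 2207 and 2180 in DU145 and at 124 and 226 in 22RV1. With H2O2, HMOX1 was at 3127 and 2677 in DU145 and at 5073 and 2630 in 22RV1. In vector vehicle cells, NQO1 was at 23143 in DU145 and 1498 in 22RV1, and TXNRD1 at 65047 and 9523. Of the 35 p53 targets, 23 (65.7%) were lower in DU145 and none higher, and the median in 22RV1 was 1.38. In 22RV1 cells, GDF15 and CDKN1A rose by log2 5.13 and 3.10, differences of -2.92 and -0.99. The snoRNA hosts went the other way, where 12 of 18 were higher in DU145 and 1 lower. The 13 mitochondrial mRNAs were all lower in DU145, and so were 21 of 22 mitochondrial tRNAs, with a tRNA median of 0.29 in 22RV1 cells. For mitosis genes, the median was -0.99 in the DU145 fit and -1.30 for 22RV1 in the fit of all libraries, and the effect was higher in DU145 for 18 of 64 and lower for 1.

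**Figure D5:**
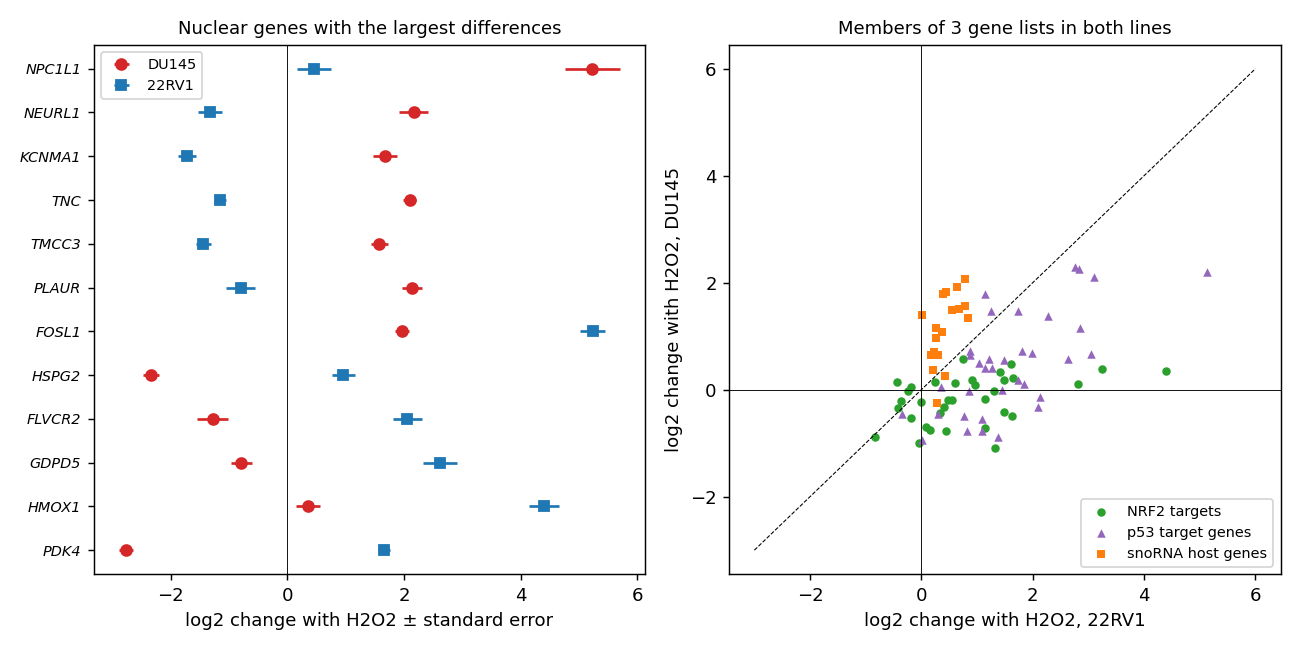
Left, log2 change with H2O2 ± standard error in DU145 (red circles) and 22RV1 (blue squares) of the nuclear genes with the largest line differences, those lower in DU145 chosen after their values were seen. Right, members of 3 lists with the log2 change in 22RV1 on the x axis and in DU145 on the y axis and the line of equality dashed, both from the fit of all 8 libraries. NRF2 and p53 targets lie mostly below that line and snoRNA host genes above it.

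Named genes with opposite responses in the lines included TNC, tenascin C, which was at 421, 1962, 762 and 3206 in DU145, with a log2 change of -1.16 in 22RV1. PLAUR, the urokinase receptor, was at 688, 3310, 966 and 4186 in DU145, a log2 change of 2.19 (SE 0.09), against -0.80 in 22RV1. KCNMA1, a potassium channel, rose by log2 1.73 in DU145, against -1.72 in 22RV1. TFRC differed by 2.51 and NEAT1 by -2.45. PDK4 had a log2 change of 1.66 in 22RV1, a difference of -4.42, and FOSL1 rose in both lines, by log2 5.24 in 22RV1, a difference of -3.27. FOSL1 vehicle libraries were at 24.7 and 12.1 in 22RV1, against 2509 and 3617 in DU145. Line and culture cannot be told apart here, since each line was handled as its own cultures.

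The pairs disagreed for few genes. Over 1.5-fold in opposite directions with a mean of at least 50, there were 6 genes. FP236383.4 was at 26.0, 68.2, 333 and 78.0, and AL353644.8 at 47.3, 76.6, 405 and 91.6, so each was low in vector vehicle and high in PAGE4 vehicle. AAMDC was at 145, 75.5, 67.7 and 116, UCN, urocortin, at 30.6, 52.5, 75.2 and 46.4, and PDCD4-AS1 at 66.8, 39.9, 41.4 and 65.3. TXNIP, the thioredoxin inhibitor, was higher with H2O2 in both pairs, at 481, 693, 447 and 1237, and a difference between the constructs could not be tested with 1 library each.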

How the data were processed

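RNA was sequenced from 8 conditions, 1 library each, and the 4 DU145 libraries were used, with 22RV1 for the comparison of lines. Per the submitters' processing notes, reads were aligned to GRCh38 with HISAT2 2.1.0 and counted with featureCounts 1.6.0. The authors deposited raw counts per gene, without normalization. The annotation and the use of strand are not given in the sources used here, and the labels name Trizol for extraction where the methods name a column kit. Of 58828 symbols, 26 had been turned into dates and were kept. Genes passing edgeR's filter on low counts (18622 in DU145, 22418 in all 8 libraries) entered edgeR 4.0.16 (glmQLFit and glmQLFTest, the quasi-likelihood test; TMM scaling, construct block, Benjamini-Hochberg adjustment, adjusted p under 0.05). Displayed values were divided by DESeq2 1.42.0 size factors, with 0.5 added before log2. On simulated counts for H2O2 against vehicle in DU145, with 18622 genes, the test recovered 154 of 200 genes changed 2-fold (8 false calls) and 197 of 200 changed 4-fold (3 false calls). The simulation gave all genes the same spread, taken from the fit itself, and no difference between constructs. It changed 200 genes, whereas 50.8% were called in the data. It therefore checks that the code runs as meant and cannot give the rate of false calls in the data. Named genes were the 12 highest and 12 lowest among genes called, over 1.5-fold in both pairs and with a mean of at least 50, clone names left out, anchors and the largest rise and fall of each of 43 lists, PAGE4, SOD1, the 6 largest line differences each way and 5 opposite pairs. Some named genes are not reported here. The 12 lowest were mitochondrial tRNAs, so the 12 lowest nuclear genes and the lowest nuclear line differences were added after their values were seen. Members and lists were chosen with earlier results of these data known. Alternatives were other scalings, no filter, DESeq2's Wald test, limma-voom 3.58.1, no block, all 8 libraries and each pair left out. Intervals and floors cover counting error only. Gene coordinates are from GENCODE 44 (GRCh38), matched by symbol for 14596 of the 18622 genes. R 4.3.3 and Python 3.11.15 were used.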

Additional observations from a re-analysis of the deposited data

Results flagged for a closer look

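The H2O2 effect differed between DU145 and 22RV1 cells, by a test of the difference in edgeR's quasi-likelihood fit, for 1691 genes that were higher and 1964 that were lower in DU145. Of the 270 genes named here that could be tested, 153 differed, against 3655 of all 22418 genes tested (16.3%). Some genes were named for their line difference or for a large change in DU145, so the share among named genes was partly set by that choice. Differences are DU145 minus 22RV1 on the log2 scale, and each has an adjusted p under 0.05. NPC1L1 differed by 4.77, NEURL1 by 3.49, KCNMA1 by 3.40, TNC by 3.25, TMCC3 by 3.02 and PLAUR by 2.95. Vehicle levels of NPC1L1 also differed, at 2.78 and 3.76 in DU145 and at 110 and 121 in 22RV1. The mitochondrial tRNAs had the lowest values, with MT-TM at -7.57, MT-TI at -7.24, MT-TV at -5.87, MT-TY at -5.80, MT-TT at -5.58 and MT-TS1 at -5.52. Nuclear genes chosen after their values were seen were PDK4 at -4.42, HMOX1 at -4.05, GDPD5 at -3.41, FLVCR2 at -3.34, HSPG2 at -3.29 and FOSL1 at -3.27. HSPG2, the basement membrane proteoglycan perlecan, was at 2722, 670, 2766 and 469 normalized counts in DU145. Whether a line, its cultures or the handling of its libraries set these differences was not tested.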

How the results depend on the processing

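The 9454 DU145 calls became 4278 when over 1.5-fold in both pairs was also required, which was chosen after seeing the data, and from 5143 to 5327 when either pair was left out. The 7 other settings (DESeq2 size factors, library totals, no mitochondrial genes, no filter, DESeq2's Wald test, no construct block, all 8 libraries) and limma-voom gave 6661 to 9510 calls. The 4869 fold changes over 1.5 in both pairs became 9108 with no count minimum and 1847 over 2-fold. The 3655 line differences ran from 2121 to 4248 as each pair was left out, lowest without the DU145 PAGE4 pair and 2320 without the DU145 vector pair, and without a filter 2365 were higher and 1715 lower in DU145. Leaving out a pair leaves fewer samples, and the cause of the other moves was not tested.

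Among genes named, SRXN1 reversed to -0.45 without the vector pair (1.36 without the PAGE4 pair) and -0.40 in the PAGE4 pair alone, FTH1 to -0.18 (0.53 without the PAGE4 pair) and -0.12, and, without the PAGE4 pair and in the vector pair alone, FP236383.4 to 1.35 and 1.37 (-2.15 without the vector pair) and AL353644.8 to 0.65 and 0.69 (-2.20 without the vector pair). Calls were lost for 51 of the named genes without the PAGE4 pair, 46 without the vector pair and 29 with the Wald test. All 18 named line differences kept their direction and passed under the 7 alternatives. Of 86 counts over gene lists, 41 moved by more than 1.5 times without the vector pair, 36 without the PAGE4 pair and none with limma-voom. Each condition had 1 library, so construct and culture cannot be told apart, and genes near 3 counts are too shallow to compare.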

Other observations

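Values of gene groups not described above follow, for DU145 cells. Over all genes tested, 25.4% rose and 25.3% fell. The shares that rose and fell were 44.4% and 27.8% for clock genes and 33.3% and 38.9% for BMP, ID and TGF-beta genes. They were 60% and 20% for arrestins and 16% and 8% for histone genes. For ferritin and iron genes they were 50% and 40%, and for EGFR family and ligand genes 45.5% and 36.4%. Of 18 circadian clock output genes, 8 rose and 5 fell (4 and 4 without the vector pair, 3 and 3 without the PAGE4 pair), with DBP at 161, 34.6, 157 and 54.8 normalized counts and PER1 at 497, 292, 531 and 268. Of 18 BMP, ID and TGF-beta genes, 6 rose and 7 fell (4 falls without the PAGE4 pair), with SMAD6, an inhibitor of BMP signalling, at 591, 252, 561 and 177 and ID1 at 2923, 2294, 4033 and 2066. Of 5 tested TXNIP and related arrestins, 3 rose and 1 fell, with ARRDC4 at 177, 349, 170 and 467. Of 25 tested replication-dependent histone genes, 4 rose and 2 fell (1 and 1 when either pair was left out), with HIST1H2BK at 891, 1573, 813 and 1725 and HIST1H4C at 844, 528, 649 and 611. Of 10 ferritin and iron genes, 5 rose and 4 fell (3 and 2 when either pair was left out). Of 11 EGFR family and ligand genes, 5 rose and 4 fell (2 rises without the vector pair, 2 falls without the PAGE4 pair), and AREG was at 4201, 4919, 4578 and 5019.

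Of 19 hypoxia genes, 7 (37%) rose and 4 (21%) fell. Of 17 BCL2 family genes, 8 (47%) rose and 3 (18%) fell, against 25.4% and 25.3% of all genes. Leaving out either pair left 4 rises in the hypoxia list and 5 in the BCL2 list. MALAT1, a nuclear long noncoding RNA, was at 265900, 225944, 218921 and 190978. Across 11356 protein-coding genes with a mean of at least 50, Spearman's rho between log2 change and transcript length was -0.05, as a description over genes.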
